A study of Arabidopsis thaliana with 6 samples.

Results

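The transcripts described here were lower in wounded Arabidopsis thaliana leaves than in leaves of unwounded plants, while distant, unwounded leaves of wounded plants stayed near the control level. They were selected on measured values: a mean in local leaves at least 0.9 (log2) below the control mean, a mean in systemic leaves no more than 0.3 below it, and both local arrays below all 4 others. Of 22746 probe sets, the groups of short probes that each measure a transcript, 117 met this rule, or 0.514%. Symbols beginning with TUB, EXPA, ALDH, ATG or IAA were set aside, which removed 1 probe set, that of the beta-tubulin gene TUB7. Of the 117 members, 54 carried the name of 1 gene, 6 listed several genes and 57 had no gene listed, so the last can be described by level alone.

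The plants were of the Columbia ecotype, 5 weeks old, grown on soil at 21 °C with 10 h of light a day. Local leaves were rosette leaves clamped across the midvein with tweezers and taken after 10 min, systemic leaves were unwounded leaves of wounded plants taken at the same time, and control leaves came from unwounded plants. No plant carried a mutation or transgene according to the labels. Each of the 6 arrays held a pool of leaves from 3 plants, with 2 biological replicates a group, and levels are log2 values on which a difference of 1 is 2-fold.

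The amount of a messenger RNA in a leaf is set by how fast it is made and how fast it is broken down, and an array sees only the amount. Crushing a leaf is known to set off electrical and calcium signals that travel through the veins, jasmonate synthesis, and a rapid rearrangement of transcripts in which growth-related genes are often turned down. The rule above picks out genes that were lower at the wound and, at a distance, lower by no more than the bound it sets. It does not require that the distant leaf was unchanged. Whole leaves were sampled, so fewer cells of a type and less RNA per cell cannot be told apart.

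The leaf identity of the samples was clear: RCA, the activase of the carbon-fixing enzyme Rubisco, stood between 14.57 and 14.61 on all arrays, and LHCB4.1, a light-harvesting protein, between 14.20 and 14.26. SWEET11, a sugar exporter that marks phloem, was at 11.40 and 11.50 in local, 10.85 and 11.07 in systemic, and 10.41 and 10.90 in control leaves. AUR1, a kinase that marks dividing cells, was at 5.71 and 5.57 in local, 5.90 and 5.80 in systemic, and 6.56 and 6.49 in control leaves. The guard cell marker FMA lay between 6.43 and 7.08 on all arrays and the trichome marker TRY between 6.15 and 6.80. PYK10, a beta-glucosidase typical of roots, was at 3.95 and 4.19 in local, 4.23 and 4.25 in systemic, and 6.91 and 7.72 in control leaves. Of the 7 markers measured, SWEET11 was called higher and AUR1 and PYK10 lower in local than in control leaves by limma; AUR1 and PYK10 were also low in systemic leaves. For ubiquitin RNA, 3' probe sets exceeded 5' ones by 0.41 and 0.40 on local, 0.60 and 0.60 on systemic, and 0.65 and 0.58 on control arrays. The same excess for actin was 2.76 and 2.58 on local, 2.92 and 2.62 on systemic, and 2.84 and 2.39 on control arrays, and for GAPDH 0.80 and 0.55 on local, 0.97 and 0.61 on systemic, and 0.76 and 0.59 on control arrays. Ubiquitin thus set the local arrays apart, while actin and GAPDH were higher in replicate 1 than in replicate 2 of each group. The part of these markers and RNA end ratios in the results was not tested.

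A local mean at least 0.9 below control was shared by 559 probe sets. Of them 119, or 21.3%, had a systemic mean within 0.3 below control or higher, and 118 also had both local arrays lowest. The members' median difference between local and control leaves was -1.12, or 2.17-fold lower, with a range from -2.99 to -0.90. Their median difference between systemic and control leaves was -0.14, with a range from -0.30 to 0.49. Over all probe sets the same medians were -0.04 and -0.02. The difference between local and systemic leaves had a median of -0.99 over the members and -0.03 over all probe sets.

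**Figure D1:**
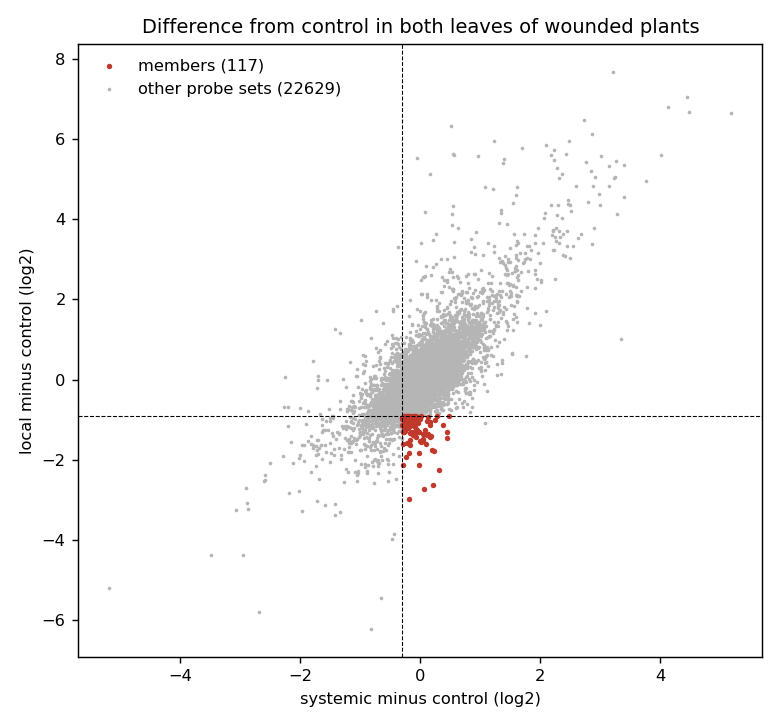
Each point is a probe set, placed by its systemic minus control difference (x axis, log2) and its local minus control difference (y axis, log2); dashed lines mark the bounds of -0.3 and -0.9. The 117 members, in red, occupy the lower right corner that these bounds cut out, while most of the 559 probe sets below the -0.9 line lie to the left of it, at lower systemic values.

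Since these differences chose the members, the counts that follow describe them and test nothing. By limma, a linear model across all probe sets, 111 of 117 members were called lower in local leaves than in controls (Benjamini-Hochberg adjusted p below 0.05), against 13.7% of all probe sets. Against systemic leaves, 108 of 117 were lower, against 4.93% of all probe sets. In systemic against control leaves 0 of 117 were called by limma in either direction, against 8.4% of all probe sets. An unadjusted limma p under 0.05 was found for 8 members, against 22.2% of all probe sets, and the rule bounds this difference from below. The smallest adjusted p was 0.14. The local against systemic count rested on the replicates: it was 57 without local replicate 1 and 58 without systemic replicate 2.

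The distant leaf was not uniform over the members. The systemic mean was below control in 90 members and above it in 27. Both systemic arrays lay below both control arrays in 45 of 117 members, against 27.9% of all probe sets, and above both in 12, against 22.8%; the bound on the systemic mean bears on both counts. The named members highest in systemic leaves relative to control were AT5G03350, which encodes a legume lectin-like protein, AT5G15780, of the Ole e 1 and extensin-like wall proteins, and AT1G11850. Their systemic minus control differences were 0.45 ± 0.33, 0.44 ± 0.21 and 0.31 ± 0.29 (SE), none past the threshold in limma without a replicate block.

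The 2 local replicates were not equally low. Local replicate 1 was below local replicate 2 in 102 of 117 members (87.2%), against 51.6% of all probe sets, and the median gap was -0.36. The median difference from the control mean was -1.30 on local replicate 1 and -0.93 on local replicate 2. Taken alone, local replicate 1 was at least 0.9 below control in 114 members and local replicate 2 in 70. Systemic replicate 1 was below systemic replicate 2 in 96 members (82.1%, against 52.9% of all probe sets), while control replicate 1 was below control replicate 2 in 57. Among the 432 probe sets that were as low in local leaves but also more than 0.3 lower in systemic leaves, with both local arrays below both control arrays, local replicate 1 was the lower in 68.3%, and the median gap was -0.12.

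**Figure D2:**
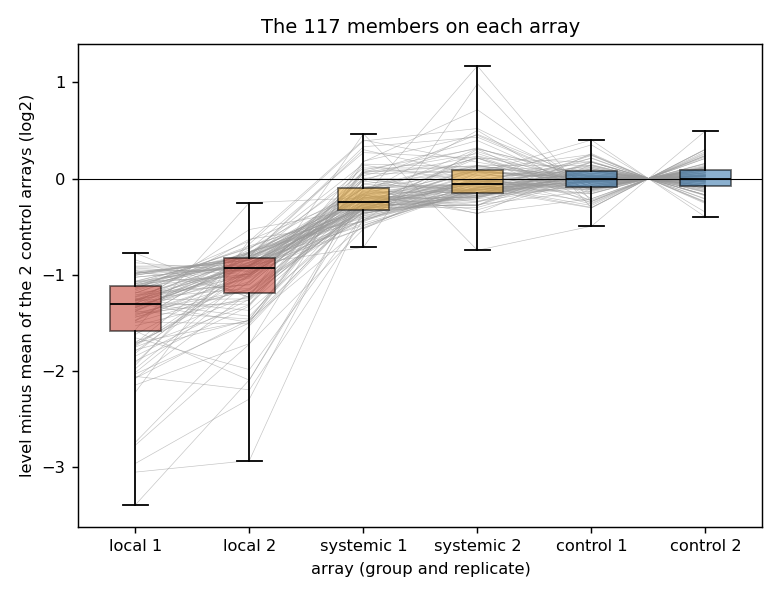
Each grey line is 1 of the 117 members over the 6 arrays (x axis), as its level minus the mean of the 2 control arrays (y axis, log2); boxes show the median and quartiles and whiskers the full range. The medians were -1.30 and -0.93 on the local arrays and -0.24 and -0.06 on the systemic arrays.

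The control values of the members ran from 5.34 to 12.78; values of different probe sets are not a measure of relative abundance, and a rule that asks for a difference of 0.9 cannot be met near the floor of the array. In local leaves 1 member had a mean below the lower quartile of the local arrays (4.41), where signal is hard to separate from background. The 54 named members lay on all 5 nuclear chromosomes, with 17 (31.5%) on chromosome 5, which held 22.4% of all singly named probe sets, and 4 (7.41%) on chromosome 2, which held 16.4%. No member genes were neighbours: the closest pair, AT5G66440 and AT5G66560, had 11 protein-coding genes between them in the TAIR10.1 gene table. Their median gene length was 2208 bases, against 2113 bases for all singly named genes. None of the 54 genes had a second probe set.

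Histone genes were listed for 6 of the 117 members. Histones are the proteins around which DNA is wound, and the bulk of their transcripts is made by cells that copy their DNA. Of the 6 probe sets that list several genes, 3 carried the same listing of 5 histone H3 genes and 2 the same listing of 8 genes that includes HIS4, a histone H4 gene; which of these near-identical genes each one measured cannot be told. Another member, HTB2, encodes a histone H2B. The remaining probe set with several genes listed 2 loci and was at 5.21 and 6.53 in local, 6.58 and 7.95 in systemic, and 6.54 and 7.02 in control leaves, so that its higher local array nearly touched the lowest control.

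Among the histone H3 members, the one with the largest difference was at 5.95 and 6.84 in local leaves, 7.73 and 7.98 in systemic leaves, and 8.27 and 7.78 in control leaves, a local minus control difference of -1.63 ± 0.28 (SE). Another was at 7.15 and 7.59 in local, 8.14 and 8.40 in systemic, and 8.57 and 8.41 in control leaves. The third was at 8.94 and 9.20 in local, 9.86 and 10.18 in systemic, and 10.32 and 10.06 in control leaves. On all 3 the local arrays were lowest, as the rule requires, and the systemic arrays overlapped the control range or lay just under it. One H4 member was at 7.22 and 7.61 in local, 8.20 and 8.58 in systemic, and 8.74 and 8.24 in control leaves, and the other at 6.97 and 7.13 in local, 7.79 and 7.89 in systemic, and 8.09 and 7.81 in control leaves. In both H4 members the local arrays were lowest, again as required, and the systemic arrays overlapped or lay within the control range. HTB2 was at 6.40 and 7.04 in local leaves, at 7.22 and 7.73 in systemic leaves, and at 8.07 and 7.27 in control leaves, and it was not called against control (adjusted p = 0.055 by limma).

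Other histone probe sets were then examined, a set assembled by symbol or listing after the members had been seen. It is partial, since 8730 of 22746 probe sets have no gene listed and other listings of several genes were not searched. Of the 18 histone probe sets found this way, 18 had a local mean below control and 15 were called lower in local than in control leaves by limma. The 6 members were selected for this, so the other 12 were also counted alone. Of these, 10 were called lower, against 13.7% of all probe sets. In 9 both local arrays were below the other 4, against 21.4% of all probe sets. Those 12 are not independent of the selection, since some share the H3 or H4 listing with members. Members included, calls covered all 5 probe sets with the H3 listing, all 5 with the H4 listing and 5 of 8 with 1 histone gene. The median local minus control difference of these 12 was -0.64, and their median systemic minus control difference -0.21. Over all 18 the median local minus control difference was -0.89, against -0.04 over all probe sets. Their median systemic minus control difference was -0.17. In systemic leaves 0 of 18 were called by limma, against 8.4% of all probe sets, so a count of 0 among 18 is near the background. The 12 that were not members missed the rule on either side. Another probe set with the H3 listing was lower still in local leaves (-1.98 ± 0.24) but at -0.55 ± 0.24 in systemic leaves. HTB1, HTB4 and HTB11, also genes of histone H2B, fell by 0.40, 0.55 and 0.56 in local leaves (adjusted p = 0.047, 0.047 and 0.02 by limma), and HON4, with the DNA-binding domain of linker histones, fell by 0.88 (adjusted p = 0.00061). HTR12, the histone H3 of centromeres, fell by 0.52 (adjusted p = 0.02). HIS1-3, a drought-induced linker histone, and MGH3, a histone H3 of male gametes, were not called, with differences of -0.73 ± 0.37 and -0.08 ± 0.14. In systemic leaves HIS1-3 differed by -1.23 ± 0.37, HON4 by -0.35 ± 0.10 and HTR12 by -0.34 ± 0.13. There HTB1, HTB4, HTB11 and MGH3 lay between -0.09 and 0.05. Against systemic leaves, HON4 was the only probe set with 1 histone gene called lower in local leaves (adjusted p = 0.017 by limma). Those with the H3 listing were all called, as were those with the H4 listing except the one at -0.46 against control. Without local replicate 1 the count of called histone probe sets was 8 of 18, and local replicate 1 was below local replicate 2 in 16 of 18.

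**Figure D3:**
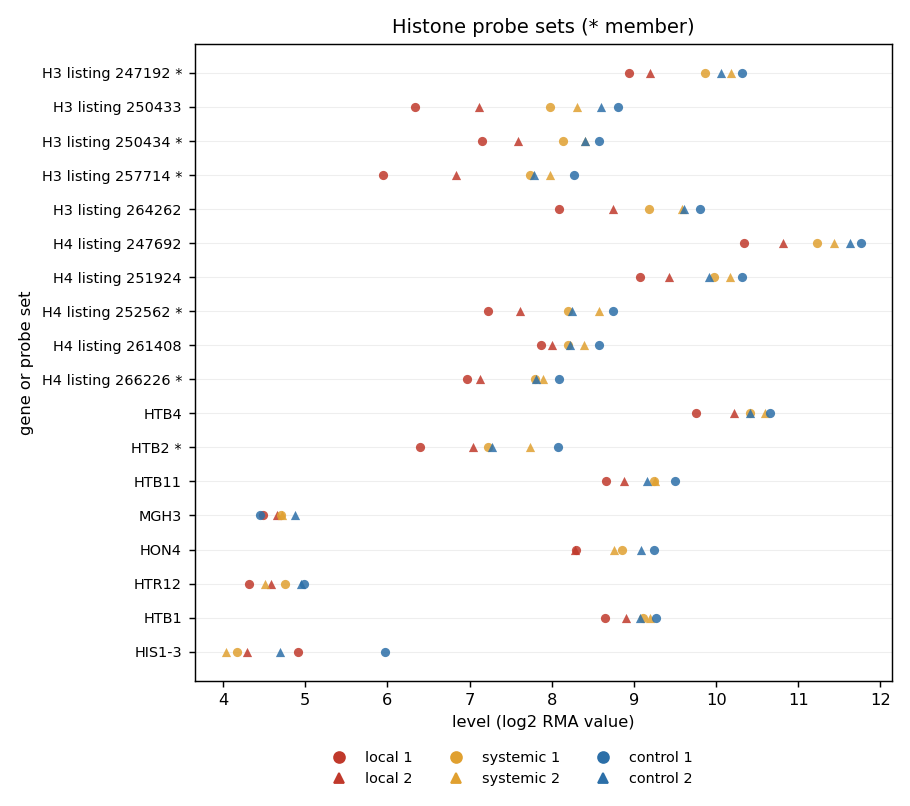
Levels (x axis, log2 RMA values) of the 18 histone probe sets (y axis) on each array, with local arrays in red, systemic in yellow and control in blue, replicate 1 as circles and replicate 2 as triangles; stars mark the 6 members. In 15 of 18 both local points lie left of the other 4, which the rule requires of the 6 members.

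A list of 19 genes of cell division and the stomatal lineage was set beside these. Of the 19, 6 were measured. In local leaves 3 fell, against 13.7% of all probe sets, and 0 rose, with a median of -0.60. None of the 6 was a member, where 0.514% of all probe sets were. AUR1 and AUR2, aurora kinases of mitosis, differed by -0.89 ± 0.10 and -1.01 ± 0.10 in local leaves and by -0.67 ± 0.10 and -0.79 ± 0.10 in systemic leaves. SPCH, the factor that starts the stomatal lineage, differed by -0.92 ± 0.10 in local and -0.73 ± 0.10 in systemic leaves. All 3 therefore passed the threshold in both leaves of wounded plants by limma (adjusted p between 0.00035 and 0.0061), at levels between 4.50 and 6.56. The rest of that list, MUTE, FMA and STOMAGEN, differed in local leaves by -0.32, -0.29 and -0.18 without passing.

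Chromatin and cytoskeleton members formed a small group beside the histones, put together after the values were seen. TUA6, an alpha-tubulin of the microtubules, was at 10.88 and 11.08 in local, 11.50 and 11.78 in systemic, and 11.86 and 11.91 in control leaves. The only other alpha-tubulin gene named here, TUA1, was at 9.31 and 9.22 in local, 9.07 and 9.14 in systemic, and 9.11 and 9.17 in control leaves, so that TUA1 was not below control on the local arrays. iqd21, of the IQ-domain proteins that bind calmodulin, was at 7.17 and 7.63 in local, 8.17 and 8.63 in systemic, and 8.51 and 8.49 in control leaves. SOL1, a CXC-domain DNA-binding protein related to TSO1, was at 5.54 and 5.53 in local, 6.22 and 6.21 in systemic, and 6.59 and 6.39 in control leaves. As the rule requires, the local arrays of TUA6, iqd21 and SOL1 lay below the systemic ones, and those of SOL1 were 0.01 apart.

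The largest named difference was that of AT5G55450, which encodes a protein of the lipid transfer family. It was at 5.97 and 6.09 in local leaves, against 8.70 and 8.95 in systemic and 8.74 and 9.30 in control leaves, a local minus control difference of -2.99 ± 0.18 (SE) or 7.92-fold lower. The local arrays nearly coincided, and the systemic arrays overlapped the control range. With it, 3 genes of GDSL-type lipases formed the lipid-related members, at differences of -1.55 ± 0.21 for AT4G28780, -1.40 ± 0.20 for AT4G18970 and -1.36 ± 0.52 for AT1G33811. AT4G28780 was at 6.56 and 7.15 in local, 8.35 and 8.48 in systemic, and 8.18 and 8.63 in control leaves. AT4G18970 was at 7.86 and 8.50 in local, 9.61 and 9.90 in systemic, and 9.50 and 9.66 in control leaves. AT1G33811 was the least settled of the 4, at 5.34 and 6.26 in local, 6.44 and 8.14 in systemic, and 6.85 and 7.46 in control leaves, and it was the only one outside the calls against control.

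Genes related to the cell wall, grouped after the values were seen, made up 6 named members. Of these 6 were called lower against control and 5 against systemic leaves, where the shares of all probe sets were 13.7% and 4.93% and the rule had selected the members. The wall of a leaf cell is a mesh of cellulose, xyloglucan and pectin that is loosened and rebuilt as the cell grows. AT3G47380, of the pectin methylesterase inhibitor family, was at 4.84 and 5.27 in local, 6.46 and 7.02 in systemic, and 6.72 and 7.25 in control leaves. AT3G07010, of the pectate lyase family that cuts pectin, was at 5.92 and 6.87 in local, 7.94 and 7.91 in systemic, and 7.85 and 8.02 in control leaves. In both genes the local arrays lay well below the other groups, whose arrays overlapped. AT5G15780 was at 5.70 and 6.18 in local, 7.57 and 8.11 in systemic, and 7.28 and 7.51 in control leaves, so that both systemic arrays exceeded both controls. The DUF642 gene AT1G29980, whose family is found in cell walls, was at 5.73 and 6.68 in local, 7.03 and 7.29 in systemic, and 7.41 and 7.47 in control leaves, and was the one not called against systemic leaves. The glycosyl hydrolase genes AT5G20950, which encodes a beta-glucosidase, and AT3G13560, of the beta-glucanase family, differed by -0.92 ± 0.12 and -0.91 ± 0.14 in local leaves and by -0.10 ± 0.12 and 0.02 ± 0.14 in systemic leaves. The group's median was -1.34 in local and -0.05 in systemic leaves.

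Proteases and a protease inhibitor made up 5 further members, with local minus control differences from -1.77 to -0.97. NANA, an aspartyl protease of chloroplasts, was at 5.01 and 5.62 in local, 7.15 and 7.48 in systemic, and 6.96 and 7.21 in control leaves. AT1G09750, an aspartyl protease of the apoplast, was at 10.28 and 10.52 in local, 11.27 and 11.58 in systemic, and 11.68 and 11.67 in control leaves. AT3G61820, of the same protease family, was at 7.89 and 8.32 in local, 8.87 and 9.18 in systemic, and 8.97 and 9.19 in control leaves. SBTI1.1, a subtilisin-type serine protease, was at 5.08 and 5.61 in local, 6.17 and 6.65 in systemic, and 6.61 and 6.27 in control leaves. AT2G38870, a serine protease inhibitor of the potato inhibitor I type, a family best known for induction by wounding in other plants, was at 7.84 and 8.24 in local, 9.08 and 9.02 in systemic, and 9.29 and 9.22 in control leaves. Systemic arrays reached above the higher control in NANA and SBTI1.1, and in AT1G09750 and AT2G38870 both lay below both controls.

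Of genes related to defence proteins, AT5G03350, a legume lectin-like gene known to be induced by salicylic acid, was at 10.84 and 12.10 in local, 13.17 and 13.30 in systemic, and 12.72 and 12.84 in control leaves, so that the order of the groups was systemic, control, local. The gap of 1.26 between its local arrays was the second widest among named members after AT4G02850, at 1.59, and its call against control was lost without control replicate 1 or 2 (adjusted p = 0.071 and 0.095 by limma). AT4G38660, of the thaumatin-like proteins, was at 6.58 and 7.42 in local, 8.37 and 8.61 in systemic, and 8.36 and 8.39 in control leaves. AT2G43590, of the chitinase family, was at 4.89 and 4.99 in local, 5.68 and 5.97 in systemic, and 5.89 and 6.08 in control leaves.

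**Figure D4:**
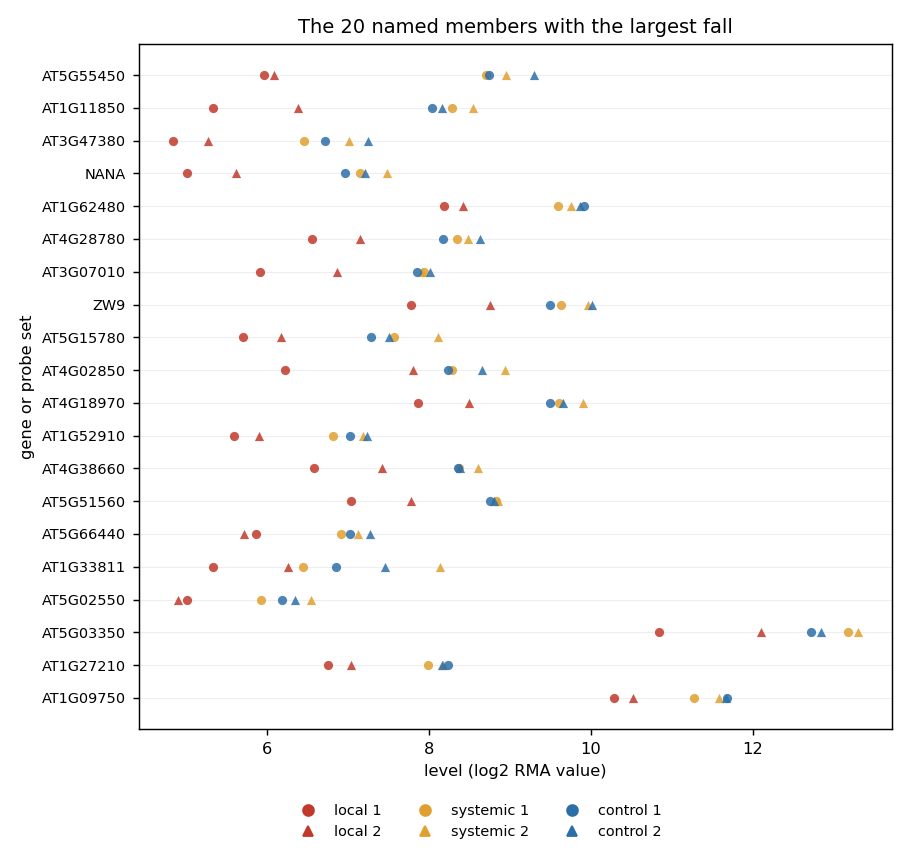
Levels (x axis, log2 RMA values) of the 20 named members with the largest local minus control difference (y axis, largest at the top), with local arrays in red, systemic in yellow and control in blue, replicate 1 as circles and replicate 2 as triangles. The local points lie left of all others in each gene, as the rule requires. Both systemic points lie above both control points in 4 of the 20 genes, against 22.8% of all probe sets. They lie below both in 2, against 27.9%, and the bound on the systemic mean bears on both counts. In AT4G02850 the local arrays are 1.59 apart.

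Kinases and regulators gave 5 members with differences from -1.37 to -0.91. AT5G51560, a receptor-like kinase with leucine-rich repeats, was at 7.04 and 7.78 in local, 8.83 and 8.85 in systemic, and 8.75 and 8.81 in control leaves. Its systemic and control arrays nearly coincided, and the local arrays stood below them, as the rule requires. The protein kinase genes AT2G36350 and AT5G50000 differed by -0.96 ± 0.10 and -0.91 ± 0.10 in local and by -0.20 ± 0.10 and -0.19 ± 0.10 in systemic leaves. AT5G66560, of the NPH3 family named for a protein of phototropism, had a local level of 6.48 and 6.70, a systemic level of 7.42 and 7.27, and a control level of 7.60 and 7.59. AT4G01460, a basic helix-loop-helix transcription factor, was at 7.17 and 7.50 in local, 8.43 and 8.40 in systemic, and 8.36 and 8.20 in control leaves, both systemic arrays being higher than the controls.

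Metabolism and the ribosome gave 5 members with differences from -1.08 to -0.95. They were the heavy-metal-associated domain gene AT5G24580 (-1.08 ± 0.12), the peroxisomal membrane protein family gene AT5G19750 (-1.02 ± 0.13), hemf2 of the coproporphyrinogen oxidase family of tetrapyrrole synthesis (-0.99 ± 0.10), AT3G52580 of a small ribosomal subunit protein (-0.98 ± 0.11) and UPP, which salvages uracil (-0.95 ± 0.16). Their systemic minus control differences were all below zero, from -0.27 to -0.13. Of 2 genes with TRAF-like domains, ZW9 was at 7.78 and 8.75 in local, 9.63 and 9.97 in systemic, and 9.50 and 10.01 in control leaves. AT3G28220 was at 9.03 and 9.43 in local, 9.89 and 10.63 in systemic, and 10.09 and 10.56 in control leaves, and its systemic arrays spanned the control range.

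The 20 named members outside these groups differed by -2.25 to -0.91 in local leaves (median -1.06) and by -0.30 to 0.31 in systemic leaves. On the contrast that selected them, 18 were called lower than control, where the share of all probe sets was 13.7%. The largest was AT1G11850, at 5.33 and 6.38 in local, 8.28 and 8.55 in systemic, and 8.04 and 8.16 in control leaves. AT1G62480 had a smaller but tighter difference, at 8.19 and 8.42 in local, 9.60 and 9.75 in systemic, and 9.92 and 9.87 in control leaves (-1.59 ± 0.11). AT4G02850, of the PhzF-like proteins, was at 6.22 and 7.80 in local, 8.28 and 8.94 in systemic, and 8.23 and 8.65 in control leaves, and was not called. AT1G52910, AT5G66440, AT5G02550 and AT1G27210 differed by -1.38, -1.36, -1.31 and -1.30, and in each the local arrays lay close together. The next 6, AT1G79160, AT5G54970, AT5G58930, AT3G14760, AT2G47630 and AT3G10120, had differences of -1.15 or nearer the bound. AT4G28310, AT5G49560, AT5G19170, AT5G64150, AT3G52170, AT1G12330 and AT4G39900 lay between -0.99 and -0.91, and among these AT3G52170 was not called.

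In the 57 members without a listed gene the local minus control differences ran from -2.73 to -0.90. The rule used this contrast, and 56 were called lower than control, against 13.7% of all probe sets. The one with the largest difference was at 8.69 and 9.99 in local, 11.89 and 12.39 in systemic, and 12.10 and 12.06 in control leaves, and the next at 5.99 and 6.66 in local, 8.92 and 9.41 in systemic, and 8.93 and 8.97 in control leaves. In 47 of the 57 local replicate 1 was the lower local array, as in 49 of the 54 named members.

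The bounds cut through a continuum. Just inside the local bound were 3 probe sets without a single named gene, at -0.901, -0.904 and -0.904, and just outside it were AT5G13140, AT4G17240 and AT3G13580, at -0.895, -0.895 and -0.894. Just inside the systemic bound were AT5G19170 at -0.299 and a pair of unnamed probe sets at -0.298 each, and just outside it AT2G16630 at -0.303 and a pair of unnamed ones at -0.301 and -0.302. Within 0.05 of the local bound there were 19 members inside and 18 probe sets outside, and within 0.05 of the systemic bound 23 and 14. Leaving out any 1 of the 6 arrays, 35 members (29.9%) still met the rule each time, 16 of them named. Those 16 included AT1G11850, AT1G62480, NANA, ZW9, AT4G28780, AT4G18970, AT3G07010, AT5G15780, AT4G38660, AT5G51560, AT2G38870, AT1G27210, AT5G66440, AT5G24580, AT5G58930 and AT3G14760.

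Of 16 lists of hormone, clock, light, sugar, wall, transport, photosynthesis and immunity genes with 312 entries, 30 entries were measured under their own name and 0 were members; at 0.514% of all probe sets, a count of 0 among 30 is near the background and says nothing particular. In the cell wall list the only measured gene was XTH16, a xyloglucan endotransglucosylase, at 8.38 and 8.50 in local, 8.95 and 9.32 in systemic, and 8.45 and 8.25 in control leaves. Of the photosynthesis list 1 of 3 measured genes fell in local leaves, against 13.7% of all probe sets. It was PORB, a protochlorophyllide oxidoreductase of chlorophyll synthesis. PORB was at 11.05 and 11.12 in local, 11.70 and 12.07 in systemic, and 12.26 and 12.41 in control leaves. Its systemic difference of -0.45 ± 0.13 put it beyond the rule. The sugar-signalling list had AKINBETA1, a subunit of the SnRK1 energy-sensing kinase, at a difference of -0.97 ± 0.11 in local and -0.64 ± 0.11 in systemic leaves, and EXO, which is linked to leaf growth, at 3.63 ± 0.36 in local and 2.38 ± 0.36 in systemic leaves.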

How the data were processed

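Total RNA from 6 leaf pools was hybridised to Affymetrix arrays. The authors deposited 1 value on the log2 scale for each probe set and array; RMA and Affymetrix Expression Console are the tools given, per the submitters' processing notes, and versions are not given in the sources used here. RMA corrects background, gives all arrays one distribution and compresses dim signals, so levels are relative and a shift of all transcripts would not be seen. No detection calls were used here, and the number of arrays limits the precision.

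The 64 control probe sets were left out. Names came from the platform annotation, updated with a TAIR10.1 gene table: all 54 singly named members matched through the Entrez number. Group means were compared in limma 3.58.1 (R 4.3.3) over all 6 arrays and 22746 probe sets (two-sided, 3 residual and 4.85 prior degrees of freedom, Benjamini-Hochberg adjustment, threshold 0.05); ± after a difference is its moderated standard error. The fit was tested on simulated data. Replicates are called biological in the labels.

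The members, lists and tests were chosen with earlier results of these data known. Genes named are the 20 largest falls, the members nearest each bound, the extremes of level, systemic difference and replicate gap, and list members; the role groups, the histone set and other names were chosen after the values were seen. Protein families of loci without a symbol, and so the role groups, come from general knowledge of the Arabidopsis annotation, not from the files. Of the lists, FDH and RPS2 matched other genes and were left out, and 3 lists had no measured gene (gibberellin and brassinosteroid, ABA and drought, nitrate and sulphur). In the other lists, genes called higher and lower in local leaves were 0 and 1 of 5 (auxin), 0 and 0 of 2 (cytokinin), 0 and 1 of 1 (ethylene), 1 and 0 of 1 (clock), 1 and 0 of 1 (light), 1 and 1 of 2 (sugar), 0 and 0 of 1 (cell wall), 0 and 0 of 2 (cuticle), 0 and 3 of 6 (cell division), 1 and 0 of 1 (transport), 0 and 1 of 3 (photosynthesis), 1 and 1 of 2 (glucosinolate) and 1 and 0 of 3 (immunity). Promoter motifs were planned but not run, since no sequence was used here.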

Additional observations from a re-analysis of the deposited data

How the results depend on the processing

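Counts of members called lower than control ran from 107 to 114 of 117 over all alternatives, and their median difference from -1.30 to -0.93 with single arrays left out; it was -1.08 with median centring and -1.03 with cyclic loess. The count of members lower than in systemic leaves ran from 57 (without local replicate 1) to 110 with arrays left out, and was 58 without systemic replicate 2. Probe sets meeting the rule numbered 73 without local replicate 1 and 193 without local replicate 2, of which 70 and 114 were members, and 77 with a systemic bound of -0.2; median centring gave 102 and cyclic loess 87, with 99 and 85 members among them. No member was called in systemic leaves with any array left out (0 to 0); with the replicate number as a block 1 was, AT5G15780 (0.44, adjusted p = 0.049 by limma). The labels do not tie samples of one number to a shared batch, and the values do not pair them by a correlation over 0.1 in every pair, though a shared replicate effect was not tested further: replicate 1 minus replicate 2 correlated at 0.14 between local and control, 0.02 between systemic and control and 0.20 between local and systemic. The block changed the other counts little (114, 113 and 13 of 18 histone probe sets). Histone calls ran from 8 to 15 with arrays left out, alternatives added after the data were seen. Among 120 values of the 20 largest named falls, 116 kept their side of the threshold and none changed sign. With an array left out the sign could not change, since the rule puts both local arrays below both controls. ZW9 lost its call without control replicate 2 (difference -1.24), and AT5G03350 as given above. AT4G02850 gained a call without local replicate 2 (difference -2.22). Where an array is left out, the lone array is assumed to vary like the others. The split of calls in local against control, 42% higher as deposited, was 54.8% after cyclic loess. Promoter motifs were not run. The cause of these shifts was not tested.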
